A study of Fragaria x ananassa with 6 samples.

Results

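Anthocyanins, the red pigments of the strawberry, are made by a short chain of enzymes. Chalcone synthase (CHS) joins a phenylpropanoid unit to malonyl units, flavanone 3-hydroxylase (F3H) oxidises the resulting flavanone, dihydroflavonol 4-reductase (DFR) and anthocyanidin synthase (ANS) turn it into the coloured anthocyanidin, and a UDP-glucose flavonoid glucosyltransferase (UFGT) adds the sugar that makes the pigment stable. In ripening receptacles, the fleshy part of the fruit, these genes are switched on together, and R2R3 MYB proteins with bHLH partners are the usual regulators of the late steps. The genes described here are the 7 array entries that carry these steps, out of 35116 gene names on the array, and they were chosen by name: gene26825 and gene26826 (chalcone synthases), gene14611 (FaF3H), FaDFR1, FaDFR1C, FaANS and FaUFGT. They were taken with earlier results of these data known.

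FaPRE1 encodes an atypical HLH protein, a kind of regulator without the basic region that binds DNA. In the FaPRE1-RNAi group (3 samples), ripe fruits of Fragaria x ananassa had been injected with Agrobacterium tumefaciens carrying the RNAi construct pFRN-FaPRE1. In the Control group (3 samples), fruits had been injected in the same way with the empty pFRN vector, so both groups were agroinfiltrated and differed in the insert. Expression was transient, fruits were pooled for each RNA, and achenes, the seed-bearing true fruits on the surface, were taken off before extraction. RNAi and Control samples of equal replicate number shared 1 of 3 two-colour arrays. RNAi was labelled with Cy3 for replicates 1 and 3 and with Cy5 for replicate 2.

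Of the gene spots, 44.1% to 60.4% were well above background in RNAi samples and 60.7% to 72.7% in Control samples. Gene30478, the gene model assigned to FaPRE1, had normalized log2 signals of 7.22, 7.47 and 7.51 in RNAi samples 1, 2 and 3, against 7.23, 8.23 and 7.73 in Control samples 1, 2 and 3, and the groups overlapped and the difference did not pass (limma, adjusted p = 0.18). The array entry named FaPRE1 was lower, with a log2 ratio of -0.52 (SE 0.11, n = 3, limma, adjusted p = 0.015). Of its relatives, gene28320 (FaPRE2) fell more, at -1.15 (limma, adjusted p = 0.0016), and gene03986 (FaPRE3) rose by 0.74 (limma, adjusted p = 0.0063). Whether the construct acted on these 2 genes was not tested. The marker lists stood far apart between the groups. All 6 achene seed storage genes were higher in RNAi samples, by 3.30 to 4.63 on the log2 scale, with a summed log2 signal of 17.1 to 17.3 in RNAi samples and 13.3 to 13.8 in Control samples. All 6 ripe receptacle genes were lower, with a summed log2 signal of 13.6 to 14.0 in RNAi samples and 17.1 to 17.3 in Control samples. The study had selected these 6 as lower on these same samples, so their direction is not independent evidence. The achene list was chosen with earlier results of these data known, so its direction is not independent evidence either. Of the ripe receptacle genes, gene31413 and gene25260 also stand in the lists below. None of the 12 markers was at 0, although gene29934, an achene gene, was well above background in only 2 of 3 Control samples. The part that this difference in markers has in the results below was not tested, and in such bulk tissue fewer cells of a type and less RNA per cell cannot be told apart.

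No probe sequences were at hand, but the study designed primers for quantitative PCR of the first and the third of these genes. These primers were not aligned to any transcript, so their specificity is not known. They are given 5′ to 3′ in lower case, and each is a designed oligo, not a read from the samples.
gene26825 forward: tgcttcacaaaatcaaaatgg
gene26825 reverse: agatttgtcactgttggtgat
gene14611 forward: gcgttttccagattgttgat
gene14611 reverse: taaatggctggaaacgatga
Whether an array probe also binds transcripts of a close relative, such as gene26825 and gene26826 or FaDFR1 and FaDFR1C, could not be examined without its sequence, so the members of such a pair, which enter the counts below one by one, may not be separate evidence.

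The comparison asked whether the enzymes of the pigment pathway changed when fruits received the FaPRE1-RNAi construct. Of the 7 genes, 6 fell in RNAi receptacles and 1, FaDFR1C, missed the threshold (limma on 1 log2 ratio per array, adjusted p under 0.05 over all 21098 genes tested). Over all genes tested, 34.8% were called and 17.9% were called lower. The mean log2 ratio was -1.84 to -2.05 for the chalcone synthases and F3H at the entry of the chain, -1.36 for FaANS, -1.45 for FaUFGT and -0.96 for FaDFR1. In 6 of 7 genes every RNAi sample lay below every Control sample, a separation in this direction that 26.0% of all genes showed. The median log2 ratio was -1.45 over the 7 genes and -0.04 over all genes. Gene26825, gene26826 and gene14611 belong to those that the study selected on these same samples, so their direction is not independent evidence.

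The 2 chalcone synthases, which catalyse the first committed step of flavonoid synthesis, gave nearly the same picture. Gene26825 had normalized log2 signals of 14.87, 15.45 and 14.48 in RNAi samples 1, 2 and 3, against 16.75, 16.80 and 16.81 in Control samples 1, 2 and 3. The RNAi samples were all low and the groups did not overlap. Its log2 ratio was -1.85 (SE 0.20, 95% interval -2.35 to -1.36, n = 3, limma, adjusted p = 0.0024), or 3.62-fold lower. Gene26826 had 14.61, 15.15 and 14.25 in RNAi samples, against 16.43, 16.56 and 16.52 in Control samples. Again RNAi sample 2 was the highest of its group and remained below all Control samples. Its log2 ratio was -1.84 (SE 0.18, 95% interval -2.28 to -1.39, n = 3, limma, adjusted p = 0.0018), or 3.57-fold lower. Between these 2 genes the ratio differed by 0.06, -0.07 and 0.07 on the arrays of replicates 1, 2 and 3, taken as gene26826 minus gene26825, so there was no consistent sign.

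Gene14611 (FaF3H), the enzyme of the next step in this set, had the lowest mean ratio. Its log2 signal was 14.83, 15.60 and 14.45 in RNAi samples 1, 2 and 3, against 16.97, 16.99 and 17.09 in Control samples. The Control samples lay within 0.12 of each other, whereas the RNAi samples covered 1.15, with RNAi sample 2 on top. The log2 ratio was -2.05 (SE 0.24, 95% interval -2.64 to -1.46, n = 3, limma, adjusted p = 0.0030), or 4.14-fold lower. A separate array entry named FaFHT, an alternative abbreviation of the same enzyme, read -2.48, -1.41 and -2.77 on the 3 arrays, close to the -2.13, -1.38 and -2.64 of gene14611. Whether both entries read the same transcript is not known from the files.

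The DFR genes departed from this pattern. FaDFR1 had log2 signals of 13.48, 13.45 and 13.32 in RNAi samples 1, 2 and 3, against 13.55, 14.77 and 14.80 in Control samples 1, 2 and 3. Control sample 1 was thus barely above the RNAi samples, and the other 2 Control samples were clearly higher. FaDFR1C had 14.79, 14.69 and 14.58 in RNAi samples, against 14.63, 16.17 and 15.92 in Control samples. Here Control sample 1 lay inside the RNAi range and the groups overlapped. The RNAi samples of both genes were tight, within 0.16 for FaDFR1 and 0.21 for FaDFR1C.

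The ratios followed from this. FaDFR1 gave -0.07, -1.31 and -1.48 on the arrays of replicates 1, 2 and 3, with a mean of -0.96 (SE 0.28, 95% interval -1.65 to -0.26, n = 3, limma, adjusted p = 0.047), which passed the threshold narrowly. FaDFR1C gave 0.17, -1.47 and -1.33, with a mean of -0.88 (SE 0.33, 95% interval -1.69 to -0.07, n = 3, limma, adjusted p = 0.086). Control sample 1 minus the mean of Control samples 2 and 3 was -1.23 for FaDFR1 and -1.41 for FaDFR1C, while the same difference was -0.06, -0.11, -0.07 and -0.05 for gene26825, gene26826, gene14611 and FaANS, and 0.41 for FaUFGT. Among all genes, 2.25% had Control sample 1 lower by over 1 log2 unit. The arrangement seen in FaDFR1C, with Control sample 1 within or below the RNAi range and Control samples 2 and 3 above it, held for 9.23% of all genes. Without replicate 1, the log2 ratios were -1.40 for both FaDFR1 (limma, adjusted p = 0.00043) and FaDFR1C (limma, adjusted p = 0.00041). Without replicate 2 they were -0.78 and -0.58, and without replicate 3 they were -0.69 and -0.65, and neither gene then passed (limma, adjusted p of 0.19 to 0.33).

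**Figure D1:**
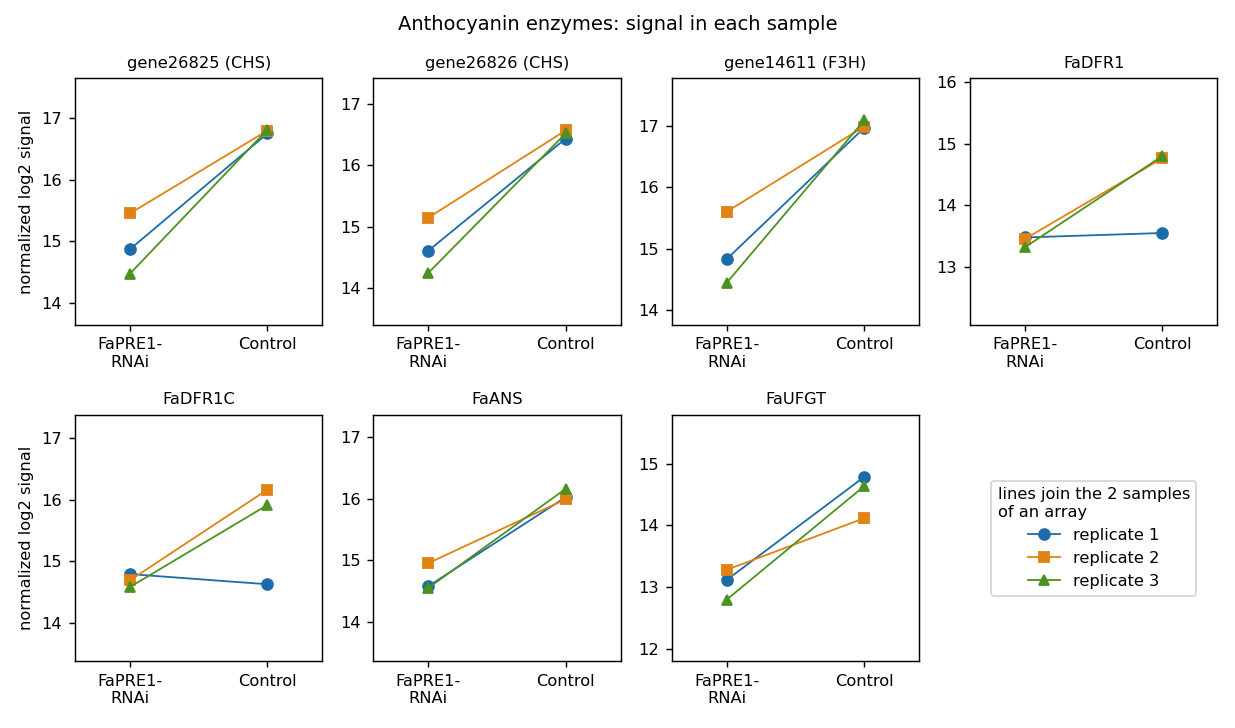
Normalized log2 signal (vertical axes, each spanning the same range of log2 units) of the 7 genes in the 3 FaPRE1-RNAi samples (left in each panel) and the 3 Control samples (right), with a line joining the samples of 1 array. All lines run upward to Control except the nearly flat lines of replicate 1 in FaDFR1 (13.48 in RNAi, 13.55 in Control) and FaDFR1C (14.79 in RNAi, 14.63 in Control).

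FaANS, the last enzyme before glycosylation, was read by a pair of probes with 2 spots each. The log2 signal of the gene was 14.58, 14.95 and 14.55 in RNAi samples 1, 2 and 3, against 16.02, 15.99 and 16.16 in Control samples. The groups were far apart and the Control samples lay within 0.17 of each other. The log2 ratio was -1.36 (SE 0.15, 95% interval -1.73 to -1.005, n = 3, limma, adjusted p = 0.0023), or 2.58-fold lower. The probe named FragP00002329 read -1.43, -1.38 and -1.48 for replicates 1, 2 and 3, and the probe named FragP00323127 read -1.46, -0.70 and -1.74, so that they parted mainly on the array of replicate 2. Taken alone, the first gave -1.43 (limma, adjusted p = 0.00097) and the second -1.30 (limma, adjusted p = 0.0077), so that the call did not depend on which probe was used.

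FaUFGT, which stabilises the pigment by adding glucose, had the least uniform Control samples after the DFR genes. Its log2 signal was 13.12, 13.28 and 12.80 in RNAi samples 1, 2 and 3, against 14.79, 14.12 and 14.64 in Control samples. Control sample 2 was the lowest of its group and was still above all RNAi samples. The ratios were -1.67, -0.84 and -1.84 on the 3 arrays, with a mean of -1.45 (SE 0.21, 95% interval -1.97 to -0.93, n = 3, limma, adjusted p = 0.0054), or 2.73-fold lower. The smallest of the 3 ratios thus came from the array of replicate 2.

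**Figure D2:**
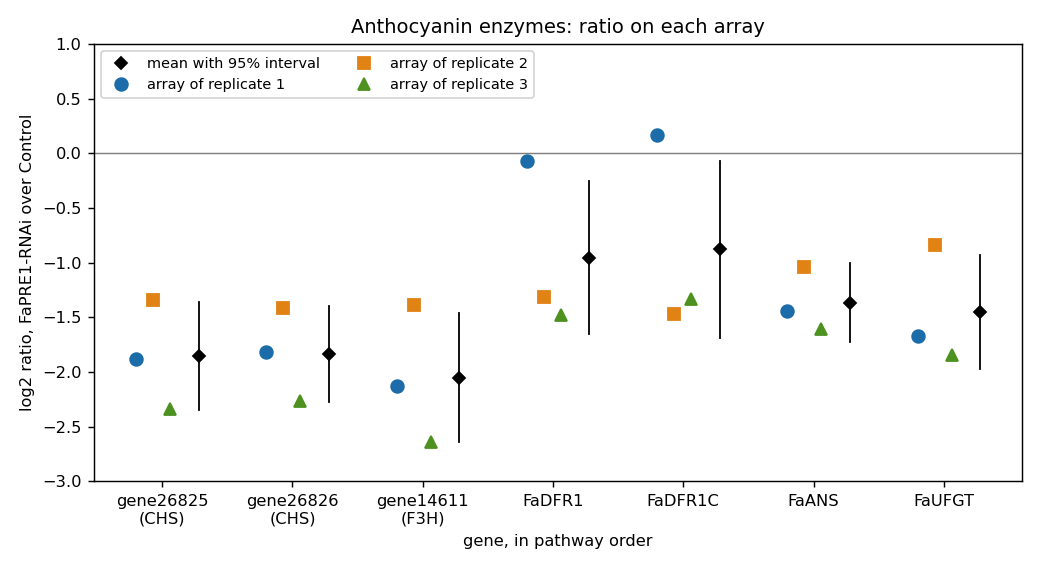
Log2 ratio of FaPRE1-RNAi over Control (vertical axis) for the 7 genes in pathway order, with 1 coloured symbol per array and the mean with its 95% interval from limma in black. On the array of replicate 1 the DFR genes lie at -0.07 and 0.17 while the other 5 genes lie between -2.13 and -1.45.

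The arrays thus differed in the shape of the pathway. On the array of replicate 2, the 5 genes up to DFR were close together, between -1.31 and -1.47, and FaANS and FaUFGT followed at -1.04 and -0.84. On the array of replicate 3, the chalcone synthases and F3H were at -2.27 to -2.64 and the 4 later genes at -1.33 to -1.84. On the array of replicate 1, the DFR genes stood apart from the other 5. The mean of the DFR genes minus the mean of the chalcone synthases was 1.90, -0.01 and 0.90 on the arrays of replicates 1, 2 and 3. These differences hardly moved with the normalization, ranging over 5 of them from 1.90 to 1.94 for replicate 1, from -0.12 to 0.14 for replicate 2 and from 0.89 to 1.03 for replicate 3. Of the 5, the 2 median centrings each shift an array by 1 constant. They give the same difference by construction and count as 1.

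Within arrays, 21 pairs of the 7 genes were compared by an exact two-sided sign-flip test, which with 3 arrays cannot give a p below 0.25. The sign of the difference was the same on all 3 arrays in 10 pairs, and no pair passed (exact p of 0.25 to 1, adjusted p of 0.53 to 1). The ratio of FaUFGT minus that of gene14611 was 0.46, 0.55 and 0.79 on the 3 arrays, a mean difference of 0.60 ± 0.17 (SD, n = 3, exact p = 0.25, adjusted p = 0.53). FaANS minus gene14611 was 0.69, 0.35 and 1.03 (exact p = 0.25, adjusted p = 0.53). The difference with the largest mean, FaDFR1C minus gene14611 at 1.17 ± 1.20 (SD, n = 3), had no common sign, being 2.30, -0.09 and 1.31 (exact p = 0.50, adjusted p = 0.70). FaANS and FaUFGT differed by less than their spread, with -0.09 ± 0.25 (SD, n = 3) for FaUFGT minus FaANS.

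In 5 genes (all but the DFR genes) the array of replicate 2 gave the smallest fall, and it was also the one array with RNAi in Cy5. With a single swapped array, dye and replicate cannot be told apart. A fit with a dye term gave log2 ratios of -1.73, -1.73, -1.88, -1.28 and -1.30 for gene26825, gene26826, gene14611, FaANS and FaUFGT, with all 5 still called, and -1.04 for FaDFR1 and -1.03 for FaDFR1C, both not called (limma, adjusted p = 0.082 and 0.094). The dye effect itself passed for none of the 7 (limma, adjusted p of 0.64 to 0.81).

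The 7 genes are among the brightest on the arrays, and loess, the intensity-dependent curve used to even out the dyes, has few spots to follow there. Between 0.152% and 1.60% of the tested genes had a higher mean intensity than these 7. All 15 spots were well above background in all samples, none was saturated, and the spots of a probe differed by at most 0.16 in log2 ratio on any array. Median centring over the probes kept, in place of loess, left the array of replicate 2 much as it was, with -1.17 for gene26825 and -1.31 for FaDFR1, but gave -2.75 and -0.90 for them in replicate 1 and -3.35 and -2.50 in replicate 3. Under that centring FaDFR1C was called at -1.46 (limma, adjusted p = 0.00018), from -0.69, -1.36 and -2.34 on the arrays of replicates 1, 2 and 3. Because limma borrows variance across genes, this small p may understate that spread, and it is not stronger evidence than the main fit. Centring over all spots called neither DFR gene, and the cause was not tested. FaDFR1C and FaDFR1 were the least reduced of the 7 on the array of replicate 1 under both centrings. The centrings differ by a constant per array, so this order is the same in both by construction.

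**Figure D3:**
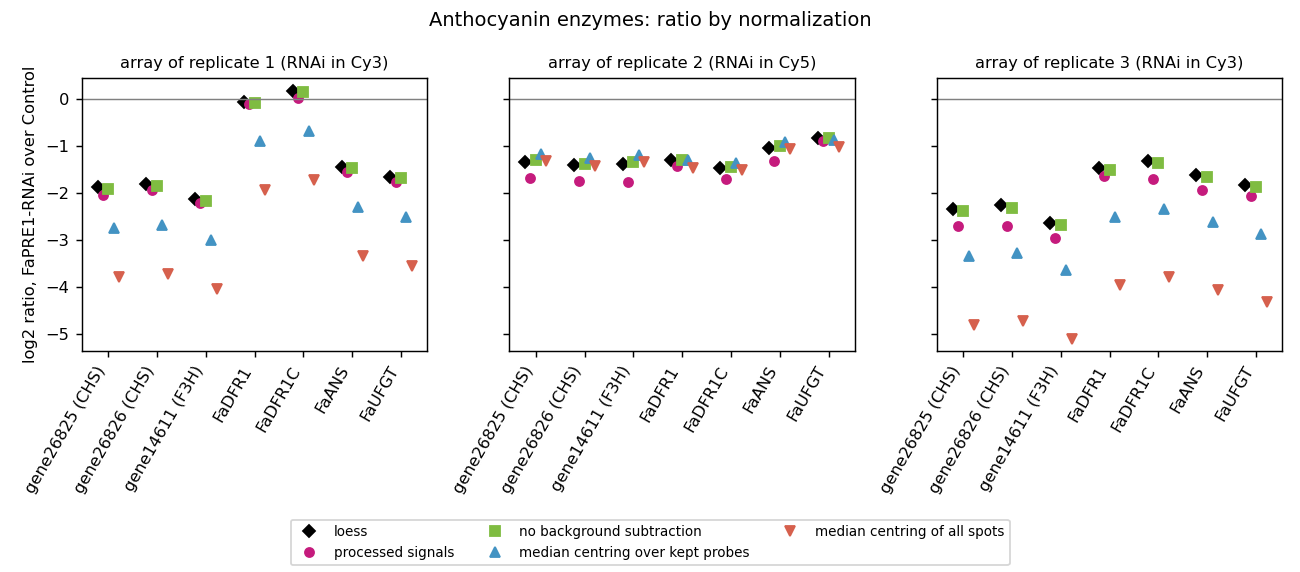
Log2 ratio of FaPRE1-RNAi over Control (vertical axis) for the 7 genes on each array (panels) under 5 normalizations (symbols). On the array of replicate 1 the DFR genes are the least reduced under each, while the level of gene26825 on that array lies between -3.79 and -1.88. The order of genes is the same by construction under both median centrings.

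All these ratios were set against the bulk of the array's genes. The arrays also carried 10 spike-in probes for RNAs from outside the plant, and against them the median of all genes lay at -2.01 for RNAi minus Control, taken within each dye and averaged. On that scale gene14611 was at -3.85, gene26826 at -3.72, gene26825 at -3.70, FaUFGT at -3.38, FaANS at -3.29, FaDFR1 at -3.11 and FaDFR1C at -3.03. Relative to the median gene this left -1.84 for gene14611 at one end and -1.02 for FaDFR1C at the other. These values carry no test.

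Around the 7 enzymes, 31 further entries of flavonoid and phenylpropanoid metabolism were followed, 28 of which could be tested. Of these, 21 fell, 5 rose and 2 did not pass, with a median log2 ratio of -1.60 beside -0.04 for all genes, and beside 17.9% of all genes called lower and 16.9% called higher. Of the 28, 3 (gene28435, FabHLH1 and FaTT12) passed the filter on dim probes through the Control samples alone. Most of the entries with a gene number had been selected by the study on these samples. In addition, 2 genes, FaCAD1 and FaMYB10, appear under both a number and a name. FaFHT, counted here, may read the same transcript as gene14611 of the 7 enzymes. FaMATE and gene07028, both counted, may likewise read the same transcript. The count is therefore a description. Against the spike-ins, 3 of the 5 that rose had a negative value, as given beside them.

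Among other flavonoid enzymes, 4 of 6 tested fell and 1 rose. Gene23367, a chalcone isomerase, which closes the ring after chalcone synthase, had 11.29, 11.35 and 11.10 in RNAi samples 1, 2 and 3, against 13.07, 12.96 and 13.27 in Control samples, and its log2 ratio was -1.86 (SE 0.14, n = 3, limma, adjusted p = 0.0011). All 6 samples kept to their group, as in chalcone synthase. Gene26353, a flavonoid 3-O-glucosyltransferase 7-like gene, fell by 2.25 in log2 (SE 0.25, n = 3, limma, adjusted p = 0.0025). FaLAR, leucoanthocyanidin reductase of the branch to catechin, fell by 1.22 (SE 0.12, n = 3, limma, adjusted p = 0.0018).

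Anthocyanidin reductase (ANR), which draws anthocyanidins away from pigment into epicatechin, ran the other way. FaANR1 had 10.12, 10.12 and 10.21 in RNAi samples 1, 2 and 3, against 9.66, 8.60 and 8.33 in Control samples, without overlap. It was higher by 1.29 relative to the bulk of the genes (SE 0.27, n = 3, limma, adjusted p = 0.017), but stood at -0.71 against the spike-ins and at -0.15 after median centring of all spots. The arrays gave 0.46, 1.52 and 1.88, so that replicate 1 showed the least change here as well, and Control sample 1 lay 1.20 above the mean of the other Control samples. The call on FaANR1 was lost without replicate 2 (1.17, limma, adjusted p = 0.11) and without replicate 3 (0.99, limma, adjusted p = 0.070). Gene24665, another ANR entry, gave a ratio of 0.63 that did not pass (limma, adjusted p = 0.073), with Control sample 1 higher than the others by 1.24. Without replicate 1 it was 0.92 and passed (limma, adjusted p = 0.0062). FaANR2 and FaFLS, a flavonol synthase, were too dim to be tested.

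All 4 regulator entries were called lower, of which Famyb10 and gene31413 stand for 1 gene and FabHLH1 and gene28435 were kept through the Control samples. Famyb10, the array's entry for the R2R3 MYB activator of anthocyanin genes in strawberry, had 10.95, 11.15 and 11.13 in RNAi samples 1, 2 and 3, against 13.81, 14.30 and 14.22 in Control samples, and its log2 ratio was -3.04 (SE 0.12, n = 3, limma, adjusted p = 0.00031). This fall was of nearly the same size on all arrays, -2.87, -3.15 and -3.09. Gene31413, the gene model of FaMYB10, fell by 2.29 (SE 0.21, n = 3, limma, adjusted p = 0.0016). FabHLH1, named for the bHLH class that partners MYB proteins, had no RNAi sample in which it was well above background, so that it has only a bound there, and it was at least 2.48-fold lower (limma, adjusted p = 0.016). Control sample 1 lay 1.31 below the mean of the other Control samples and within the RNAi range, and without replicate 3 the gene was not called (limma, adjusted p = 0.056). Gene28435 (FaEOBII), a MYB of eugenol synthesis, was too dim in 1 of 3 RNAi samples to stand well above background there. It fell by 1.04 (SE 0.26, n = 3, limma, adjusted p = 0.028), a call that was lost without replicate 2 (-1.06, limma, adjusted p = 0.12) and with dim probes left in (limma, adjusted p = 0.057). With the scanner's processed signals the ratios were -3.54 for FabHLH1 and -2.47 for gene28435.

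The low DFR signal of Control sample 1 had company in this set. Of the 28 tested entries, 3 had Control sample 1 lower than the mean of the other Control samples by over 1 log2 unit (gene26353, gene13540 and FabHLH1) and 5 had it higher by over 1 (gene24665, gene28435, gene18732, gene09427 and FaANR1). Of all genes, 2.25% were lower and 2.38% higher by as much. What sets Control sample 1 apart in these entries was not tested.

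Of the entries listed for flavonoid transport by name or family, 5 of 6 tested fell. Whether each of them carries flavonoids to the vacuole was not tested. FaGST1, a glutathione S-transferase of the class that escorts flavonoids, fell by 2.19 (SE 0.12, n = 3, limma, adjusted p = 0.00043), and FaMATE, named for a family of vacuolar carriers, fell by 1.99 (SE 0.12, n = 3, limma, adjusted p = 0.00059). Both had similar values on all arrays. Gene07028, annotated as DETOXIFICATION 55, fell by 2.09. Its ratios of -2.21, -1.88 and -2.18 on the 3 arrays were close to the -2.12, -1.77 and -2.08 of FaMATE. Whether these entries read the same transcript is not known. The glutathione S-transferases gene18732 and gene09427 fell by 1.70 and 1.68, but unevenly, with -3.14 and -2.89 on the array of replicate 1. Neither was called without replicate 2 (limma, adjusted p = 0.12 and 0.057). FaTT12, named for an Arabidopsis carrier of proanthocyanidin precursors, was at -0.28 and did not pass (limma, adjusted p = 0.12). It was well above background in only 1 of 3 RNAi samples, and its ratio moved with the processing. With the scanner's processed signals it was at -1.59 (limma, adjusted p = 0.056), and with median centring over the kept probes at 0.43. Gene31672 was too dim to be tested.

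The phenylpropanoid entries split. Gene12222, a cinnamate 4-hydroxylase-like gene, rose by 2.18 (SE 0.13, n = 3, limma, adjusted p = 0.00053) and gene15877, a 4-coumarate-CoA ligase-like gene, by 2.65 (SE 0.22, n = 3, limma, adjusted p = 0.0013). Against the spike-ins both stayed positive, at 0.26 and 1.57. The other 6 entries fell, led by gene25260 (FaEGS2, eugenol synthase) at -3.70 (SE 0.13, n = 3, limma, adjusted p = 0.00031), with the cinnamoyl-CoA reductases gene29483 and gene29482 at -2.44 and -1.57, gene13540, an isoflavone reductase homolog, at -1.64, and cinnamyl alcohol dehydrogenase FaCAD1 at -1.44 under gene20700 and -1.42 under its name. Thus 2 entries described as early enzymes of the general pathway read higher in the samples in which chalcone synthase read lower. With median centring of all spots, where no gene passed, gene12222 was at 0.86 and gene15877 at 1.56 (limma, adjusted p = 0.16 and 0.087). The lists were chosen with earlier results of these data known, so this contrast is a description.

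Of the entries for sugar and acyl transfer, 2 fell and 2 rose. Gene20725, a UDP-rhamnose rhamnosyltransferase, fell by 1.64 (SE 0.11, n = 3, limma, adjusted p = 0.00073) and Famalonyltransf by 1.10 (SE 0.17, n = 3, limma, adjusted p = 0.0070), the second not called without replicate 2 (-1.002, limma, adjusted p = 0.053). Gene34393 and gene35024, with the same rhamnosyltransferase description, rose by 1.72 and 1.51 (limma, adjusted p = 0.00076 and 0.00097), although against the spike-ins they were at -0.33 and -0.32.

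**Figure D4:**
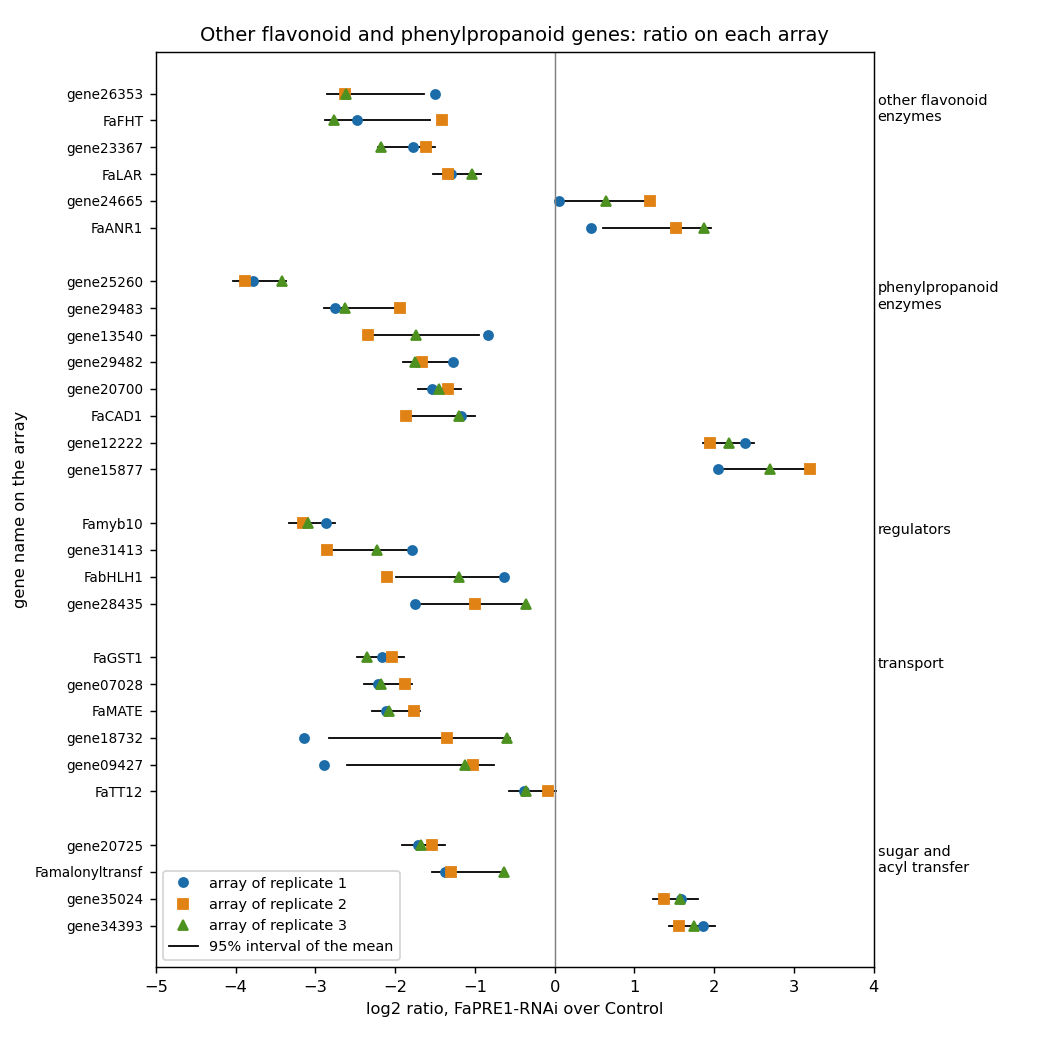
Log2 ratio of FaPRE1-RNAi over Control (horizontal axis) for the 28 tested flavonoid and phenylpropanoid entries, with 1 symbol per array and the 95% interval of the mean from limma as a line, grouped by role. Most entries lie left of 0, while FaANR1, gene12222, gene15877, gene34393, gene35024 and gene24665 (0.06, 1.20 and 0.64, not called) lie to the right on all 3 arrays.

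The genes whose 3 array ratios lay nearest to the mean profile of the 7 enzymes (-1.27, -1.26 and -1.93 on the arrays of replicates 1, 2 and 3) were gene04019, gene27005, gene19269, gene28593 and gene10882, at Euclidean distances of 0.09, 0.14, 0.15, 0.17 and 0.20 log2 units over 3 arrays. The nearest, gene04019, had -1.27, -1.34 and -1.88. No description of these identifiers was at hand, and the profile mixes the DFR genes with the others, which on the array of replicate 1 no single enzyme of the 7 matched.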

How the data were processed

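Samples were grouped by GEO's descriptions into 3 FaPRE1-RNAi and 3 Control samples. One label field calls the RNAi samples overexpressing and a protocol field names floral buds, whereas titles, sources and the study's methods name the RNAi construct and fruit, which were followed. The authors deposited 1 scanner file per array, made with Agilent Feature Extraction 10.7, and treated each channel as a sample. Per the file headers, median spot signals and local backgrounds are uncorrected intensity values, and processed signals are intensity values after background subtraction and dye normalization. Other deposited columns give spot flags, which were used, and log ratios with p-values, which were not. The 3 arrays shared 1 slide and 1 scan, which leaves no such batch to test.

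Analyses used limma 3.58.1 under R 4.3.3. After normexp background correction (offset 50), ratios were normalized by loess within arrays, with control and outlier spots at weight 0, and turned to RNAi over Control. Outlier spots were left out, and spots were averaged to probes and probes to genes. Probes with at least 50% of their spots well above background on all 3 arrays in 1 group were kept (21098 genes, after leaving out 3 with every spot of an array flagged and 2 probes without a name). Signals per sample were scaled between arrays (Aquantile). A gene not well above background on any array of a group was given a bound, the other group's mean against the mean of, per array, the higher of its own signal and the lowest signal well above background. For FabHLH1 the bound came to its mean ratio, so it sets no lower limit. Bounds are open to dye bias, since dyes were not balanced. Genes were tested by lmFit and eBayes on 1 ratio per array, with Benjamini-Hochberg adjustment over all genes. The number of arrays limits the precision. Whether the samples of a group came from separate plants is not stated in the labels, so p-values measure the spread between these samples.

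The replicate numbers pair the samples through the shared array. Deviations from the group means correlated across genes at 0.43, -0.04 and 0.17 for replicates 1, 2 and 3 (genes are not independent). The pipeline was tested on simulated data of 21098 genes for this comparison, in which it recovered 28% of the 50 genes changed 1.5-fold and 100% of the 50 changed 2-fold. It made 13 false calls there. Far fewer genes changed in the simulation than the 34.8% called in the data. The simulated noise held no departure of 1 sample such as that of Control sample 1, so these shares may overstate recovery here. The genes named were the 7 enzymes, lists of related genes, array names that hold the abbreviation of a pathway gene (FaNSY, at -0.92, matched by its letters alone and was left out of the lists, and Famalonyltransf matched likewise and was kept) and the 5 genes of nearest profile. Gene functions are those of the study's descriptions. No reference genome was used here, and no array identifier matched the reference gene table. The members and the lists were chosen with earlier results of these data known.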

Additional observations from a re-analysis of the deposited data

How the results depend on the processing

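For gene26825, gene26826, gene14611, FaANS and FaUFGT, direction and call held in all 16 refitted settings (18 for FaANS) except median centring of all spots, and log2 ratios without 1 replicate ran from -2.11 to -1.61, -2.04 to -1.62, -2.38 to -1.76, -1.53 to -1.24 and -1.76 to -1.26. FaDFR1 was called in 8 of the 16 and FaDFR1C in 2. FaDFR1 was lost with processed signals (-1.07, adjusted p = 0.051), with dim probes left in (-0.96, 0.090), with samples as separate channels and no array block (-0.96, 0.055), with a dye term (-1.04, 0.082), in the methods' t-test (-0.96, 0.17) and at a threshold of 0.01 (-0.96), and without 1 replicate ran from -1.40 to -0.69. The fit without the block changed no other call among the 7 genes, and among the related genes it lost gene28435 (adjusted p = 0.081). FaDFR1C was called at a threshold of 0.1 (-0.88) and, with a centring chosen after the data were seen, over the kept probes (-1.46), and without 1 replicate ran from -1.40 to -0.58.

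Median centring of all spots moved the median of all genes to -0.86 and called none of 21098 genes by limma, with 9060 at an unadjusted p under 0.05, and therefore 0 of the 7, and 0 lower and 0 higher of the related genes. The ratios there were -3.30 for gene26825, -3.29 for gene26826, -3.49 for gene14611, -2.45 for FaDFR1, -2.83 for FaANS and -2.96 for FaUFGT, with adjusted p from 0.051 to 0.054. Against the spike-ins they were -3.70, -3.72, -3.85, -3.11, -3.29 and -3.38 in that order and -3.03 for FaDFR1C. The cause was not tested. The number of genes called was 7350, 3419 at a threshold of 0.01, and 7125, 4304 and 3458 without replicates 1, 2 and 3.

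The median of the related genes was -1.89 with processed signals, -2.98 with median centring of all spots, -1.44 without the filter, -2.10 with centring over the kept probes and -3.95 against the spike-ins. Signs turned for FaANR1 and gene24665 under median centring of all spots (-0.15 for both) and against the spike-ins (-0.71 and -0.67), for gene34393 and gene35024 against the spike-ins (-0.33 and -0.32), and for FaTT12 with centring over the kept probes (0.43).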
